A study of Drosophila melanogaster with 42 samples.

Results

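Whole Drosophila melanogaster animals that lacked normal ERR were compared with controls at the time point labelled P1. Of the 42 libraries of a developmental time course, these are the 6 that carry the P1 label, 3 of the genotype ERR mutant and 3 of the genotype Control, taken by their labels. The whole animal was sampled in both groups, every animal was heat-treated on days 4 and 5 AEL, and staging began from animals collected as WPP. Per the labels' protocols, experimental and control animals also differed in whether they carried the hsFLP transgene. A difference between the groups therefore cannot be told apart from an effect of that transgene, and neither the ERR alleles nor the strain were given in the sources used here. The 6 libraries held 5191124 to 7138694 estimated counts. Whether the 3 libraries of each genotype were separate collections of animals is not given in the labels. The p-values below therefore describe only scatter between libraries of a group, pooled over the 14 groups of all 42 libraries. That scatter may be technical. In whole-animal RNA, fewer cells of a type and less RNA per cell cannot be told apart.

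ERR is the fly's single estrogen-related receptor, a nuclear receptor with no established hormone ligand. In Drosophila it is known as an activator of carbohydrate metabolism: larvae without it have low glycolytic gene expression and high circulating sugar. Glycolysis splits glucose to pyruvate in the cytosol, while glycogen and trehalose are the fly's storage and circulating forms of sugar. The labels do not spell out P1. The question addressed here is which RNAs differed between mutants and controls at that time point.

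One library stood apart. Mutant replicate 1 had very little RNA of male tissues, although the labels give no sex. The X-linked lncRNA:roX1, which takes part in male dosage compensation, was at 4.19, 235 and 271 CPM (counts relative to the TMM-scaled library total) in mutant replicates 1, 2 and 3, against 220.4, 317 and 289.8 CPM in the controls. The summed level of 22 testis genes was 78.6, 1474 and 1614 CPM in mutants, against 1504, 1975 and 1687 CPM in controls, and 7 of the 22 were at 0 in mutant replicate 1. The genes furthest from the other mutants were spermatid genes, among them loopin-1 (0, 464 and 499 CPM) and S-Lap1 (0.676, 569 and 598 CPM). In all, 1570 of 13672 genes were more than 8-fold lower in mutant replicate 1 than in the mean of the other 5 P1 libraries, against 7 to 11 such genes in each of those 5. RNAs of the mitochondrial genome were instead high in it. Without the mitochondrial ribosomal RNAs, their sum was 17426, 4144 and 4262 CPM in mutants, against 4166, 3458 and 4121 CPM in controls. Not all markers of sex followed this pattern. The male marker msl-2 was at 33.6, 41.5 and 40.9 CPM in mutants, against 40.5, 32.1 and 42.1 CPM in controls. The summed level of 17 ovary and germ line genes was also low in replicate 1. It was 196, 508 and 537 CPM in mutants, against 486, 543 and 508 CPM in controls. The yolk protein genes Yp1, Yp2 and Yp3 stayed at or under 7.12 CPM in all 6 libraries. Counts of called genes below are therefore given with and without mutant replicate 1.

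Few genes were called. edgeR's quasi-likelihood test, fitted over all 42 libraries, called 109 of 13672 genes at an adjusted p under 0.05. That is 0.797% of those tested, 23 higher (0.168%) and 86 lower (0.629%) in the mutant. At an unadjusted p under 0.05, the same test had 433 genes higher (3.17%) and 969 lower (7.09%). Without mutant replicate 1 the test called 103 of 13820 genes (0.745%), 27 higher (0.195%) and 76 lower (0.550%), and 17 higher and 71 lower genes were called both ways. With DESeq2's size factors in the same test the split was 74 higher and 81 lower, so the predominance of lower genes depends on the scaling. The number of higher genes was 35 without control replicate 1 and 11 without control replicate 2. Among the 109 genes, 68 differed by 2-fold or more, 11 of them higher and 57 lower. In all 109 the 3 mutant libraries lay wholly above or wholly below the 3 controls, as they did in 4.48% (above) and 9.64% (below) of all genes tested. The same held, with mutant replicates 2 and 3 alone, in 13.8% (above) and 12.1% (below) of genes. The median log2 fold change of all genes tested was -0.07, and 0.00 without mutant replicate 1.

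**Figure D1:**
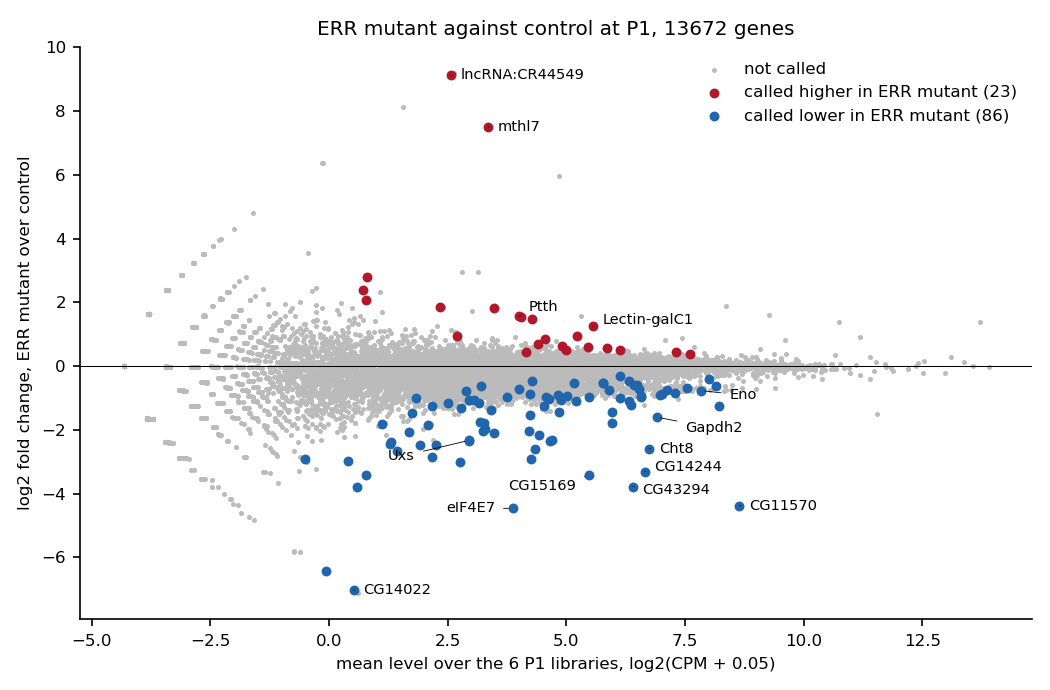
Log2 fold change of ERR mutant over control at P1 against the mean level of each of 13672 genes (log2 CPM, with 0.05 added so that genes at 0 can be drawn). Red points are the 23 genes called higher and blue points the 86 called lower, with grey points for genes not called. Fold changes of genes at 0 in a whole group are fitted values and depend on the prior count. Most blue points lie below a log2 value of -1, and both CG11570 and Eno stand at high levels.

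**Figure D2:**
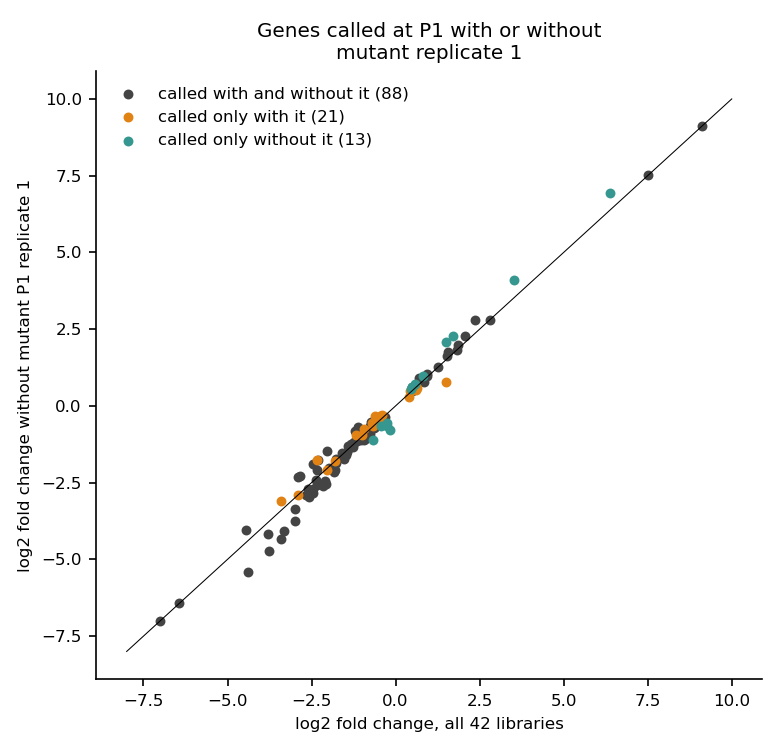
Log2 fold change without mutant replicate 1 (vertical) against that with all libraries (horizontal) for the genes called in either test. Grey points are the 88 genes called both ways, orange points the 21 called only with the library and green points the 13 called only without it. Another 2 genes, tested only without it, are not drawn. All points keep their direction, and several of the lowest genes lie further below 0 without the library.

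The targeted gene came first. ERR (FBgn0035849) lies on the minus strand of chromosome 3L, between positions 8183361 and 8186671 of build dm6. Its level was 8.78, 10.9 and 9.88 CPM in mutants, against 16.1, 12.5 and 16.1 CPM in controls. All 3 mutant libraries lay below all 3 controls. The difference (log2 fold change -0.60, SE 0.178) did not pass the test across all genes (adjusted p = 0.135, and 0.414 without mutant replicate 1). Without knowing which part of the gene the mutation changes, the remaining RNA does not measure how much ERR protein was left.

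The pair of genes next to the 3' end of ERR changed in opposite directions. Uxs was chosen for description after its values were seen. Uxs, which encodes UDP-xylose synthase, runs from 8180923 to 8183369 on the plus strand and overlaps the 3' end of ERR. Its level was 1.62, 3.38 and 2.60 CPM in mutants, against 14.5, 12.5 and 11.4 CPM in controls, so the groups were well separated (log2 fold change -2.33, adjusted p = 2.8e-06, and 4.3e-05 without mutant replicate 1). Next to it, mthl7, a methuselah-like receptor gene at 8178675 to 8180514 on the minus strand, was at 20.1, 23.1 and 17.4 CPM in mutants, against 0.123, 0 and 0.130 CPM in controls. It was detected in every mutant library and close to 0 in every control (log2 fold change 7.51, adjusted p = 3.5e-13). On the other side of ERR, Atg18a, an autophagy gene, was at 58.0, 73.9 and 70.8 CPM in mutants, against 71.8, 70.3 and 69.4 CPM in controls, and was not called. Uxs and ERR share 9 bases on opposite strands, and the annotation also places asRNA:CR45869 and asRNA:CR45870 on the strand opposite ERR. The strand setting of the counting was not given, so reads of these antisense RNAs and of ERR cannot be told apart.

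Of the gene lists examined, glycolysis held the most called genes. Of its 13 members, 11 fell in the mutant and none rose, where 0.629% of all genes tested fell. The median log2 fold change of the 13 was -0.98, beside -0.07 for all genes. All 13 values were below 0, as were 8449 of the 13672 genes tested. Without mutant replicate 1, 10 of the 13 fell and the median was -0.79. The members called lower were Pgi, Pfk, Ald, Tpi, Gapdh1, Gapdh2, Pgk, Pglym78, Eno, PyK and Pgm, while the hexokinase genes Hex-A and Hex-C did not pass.

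The largest log2 falls of the 11 were those of Gapdh2 and Pglym78, in the part of the pathway that turns triose phosphates into pyruvate. Gapdh2, one of the glyceraldehyde-3-phosphate dehydrogenases, was at 52.7, 59.6 and 65.9 CPM in mutants, against 188, 167 and 185 CPM in controls. Its highest mutant library lay 2.54-fold below its lowest control, and the fitted difference between the groups was 3.03-fold (log2 fold change -1.60, adjusted p = 4.0e-10). The second such enzyme, Gapdh1, fell less, to 106, 120.3 and 109 CPM in mutants, against 203, 198 and 196 CPM in controls (log2 fold change -0.83, adjusted p = 5.4e-05), again with no overlap. Pglym78, phosphoglycerate mutase, was at 12.8, 16.2 and 17.3 CPM in mutants, against 45.9, 41.4 and 37.3 CPM in controls (2.69-fold lower, adjusted p = 5.0e-08). Here too the groups did not overlap, and the controls spanned a wider range than the mutants. PyK, pyruvate kinase, which makes the pathway's pyruvate, was at 40.1, 49.7 and 49.5 CPM in mutants, against 100.1, 86.2 and 95.3 CPM in controls (2.02-fold lower, adjusted p = 4.8e-07). Pgk, phosphoglycerate kinase, averaged 63.6 ± 9.66 CPM in mutants and 126 ± 3.65 CPM in controls (SD, n = 3 each; adjusted p = 1.4e-07). Eno, the enolase gene, averaged 169 ± 27.5 CPM in mutants and 287 ± 16.5 CPM in controls, a fold of 1.70 (adjusted p = 3.2e-06). All of these remained called without mutant replicate 1, with log2 fold changes from -1.52 for Gapdh2 to -0.64 for Eno.

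In the upper part of the pathway, several values moved with mutant replicate 1. Pfk, phosphofructokinase, the committed step of the pathway, was at 16.5, 64.4 and 71.3 CPM in mutants, against 106, 112 and 111 CPM in controls. Replicate 1 was far below the other mutants, which were themselves below all controls. The log2 fold change was -1.11 (adjusted p = 0.0262), and -0.69 without that library (adjusted p = 0.0215), while leaving out any single control ended the call, with the adjusted p between 0.0581 and 0.0989. Tpi, triose phosphate isomerase, showed the same pattern, at 19.7, 65.0 and 64.7 CPM in mutants, against 113, 125 and 107 CPM in controls. Its log2 fold change was -1.21 (adjusted p = 7.6e-04), and -0.82 without mutant replicate 1 (adjusted p = 3.2e-06). Pgi, phosphoglucose isomerase, was at 42.02, 85.3 and 84.9 CPM in mutants, against 96.5, 124 and 103 CPM in controls. It was called with all libraries (adjusted p = 0.0276), but not without mutant replicate 1 (adjusted p = 0.155) or control replicate 2 (adjusted p = 0.228). Ald, aldolase, at 68.8, 127 and 117 CPM in mutants and 184, 184 and 154 CPM in controls, stayed called both ways. Hex-A, the main hexokinase gene of these animals, was at 61.9, 59.3 and 53.3 CPM in mutants, against 70.5, 61.0 and 70.3 CPM in controls (log2 fold change -0.21, adjusted p = 0.403). Hex-C was barely detected, at no more than 0.316 CPM in any library. A set of 12 testis paralogs of these enzymes had no called member by edgeR or DESeq2, with 1 lower at an unadjusted p under 0.05 (7.09% of all genes were), and a summed level of 9.05, 346 and 375 CPM in mutants, against 347, 482 and 386 CPM in controls.

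**Figure D3:**
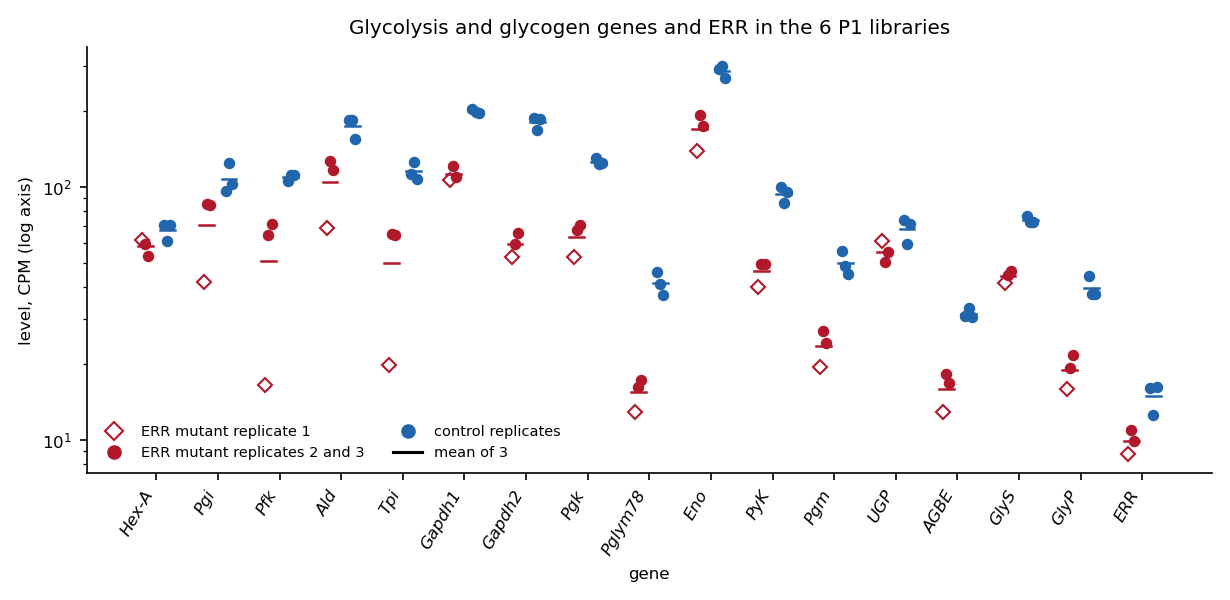
Levels of the glycolysis and glycogen genes and of ERR in each P1 library, in CPM on a log axis. Red symbols are ERR mutant libraries, with an open diamond for replicate 1, blue symbols are controls, and bars are means of 3. For Pfk and Tpi replicate 1 sits well below the other mutant libraries, whereas for Gapdh2, Pgk, Pglym78 and GlyS all 3 mutant libraries are close together and below the controls.

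On the deposited length-scaled FPKM values, which allow levels of different genes to be compared, Eno and Gapdh1 were the most abundant glycolysis RNAs in both genotypes. Eno had 91.5 ± 7.70 FPKM in mutants and 152.9 ± 9.47 FPKM in controls, and Gapdh1 had 90.5 ± 6.38 FPKM in mutants and 152.5 ± 2.41 FPKM in controls (SD, n = 3 each). These 2 neighbours in the order did not differ beyond their spread. Gapdh2 stood at 45.9 ± 2.29 FPKM in mutants and 132.3 ± 6.24 FPKM in controls, and in both genotypes every library had less of it than of Gapdh1. Pfk had 5.24, 18.5 and 20.6 FPKM in mutants, against 30.1, 32.99 and 31.9 FPKM in controls. Pgm had the lowest mean FPKM of the 11 called enzymes in both genotypes. Pfk came next, but in mutants this rested on replicate 1, without which Pglym78 (16.7 FPKM) lay below Pfk (19.5 FPKM).

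Genes of glycogen turnover fell alongside. Of 9 tested genes of glycogen and trehalose, 3 fell (33.3%, beside 0.629% of all genes tested), with and without mutant replicate 1. None rose, and the median log2 fold change was -0.44. GlyS, glycogen synthase, which extends the glycogen chain, was at 41.6, 45.0 and 46.3 CPM in mutants, against 77.0, 72.7 and 72.7 CPM in controls (log2 fold change -0.74, adjusted p = 0.00308). AGBE, the glycogen branching enzyme, was at 12.8, 18.2 and 16.8 CPM in mutants, against 30.9, 33.04 and 30.7 CPM in controls (log2 fold change -0.98, adjusted p = 9.6e-04). GlyP, glycogen phosphorylase, which releases glucose phosphate from glycogen, was at 15.9, 19.2 and 21.6 CPM in mutants, against 44.5, 37.6 and 37.6 CPM in controls (log2 fold change -1.08, adjusted p = 9.6e-04). Thus genes of both synthesis and breakdown fell, and in each of them the groups were clearly apart. Gbs-76A, a glycogen-binding subunit of protein phosphatase 1 that was in no list and was picked after its values were seen, also fell, to 15.1, 12.02 and 12.6 CPM in mutants, against 26.2, 23.1 and 23.4 CPM in controls (adjusted p = 0.00482). Treh, the trehalase gene, was at 104, 143 and 131 CPM in mutants, against 121, 131 and 129 CPM in controls, with overlapping groups (adjusted p = 1).

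Next to these, other carbohydrate and energy pathways had no call by edgeR. That held for the 7 genes of the pentose phosphate pathway, 22 genes of pyruvate entry and the TCA cycle and 85 nuclear genes of oxidative phosphorylation, and DESeq2 called none of them either. At an unadjusted p under 0.05, 1, 4 and 12 of them were lower and none higher, beside 7.09% lower and 3.17% higher of all genes tested. Their median log2 fold changes were -0.20, -0.11 and -0.14, and -0.06, -0.0040 and 0.02 without mutant replicate 1. Of 5 genes of lactate, glycerol phosphate and sorbitol metabolism, listed together, 1 fell (20%, beside 0.629% of all genes tested). This was Sodh-1, a sorbitol dehydrogenase gene, at 0.135, 0 and 0.260 CPM in mutants, against 0.982, 1.90 and 0.650 CPM in controls (adjusted p = 0.0341). The call was lost by DESeq2, and without mutant replicate 1, mutant replicate 2 or control replicate 2 (adjusted p between 0.107 and 0.234). Ldh, lactate dehydrogenase, was at 2.43, 3.78 and 5.46 CPM in mutants, against 8.96, 9.33 and 8.71 CPM in controls. Every mutant library was lower, but edgeR's test did not pass (adjusted p = 0.0900), while DESeq2 called it, among the 0.819% of all genes that it called lower.

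Several genes with large falls had their highest control level at P1. This was not the usual case among the 86 lower genes. Of these, 13 (15.1%) had their highest control mean at P1, beside 20.8% of all genes tested. CG14022 and eIF4E7, described below, also had large falls, without such a peak. CG11570, an uncharacterised gene on chromosome 3L, was at 74.6, 17.96 and 17.8 CPM in mutants, against 551, 894 and 848 CPM in controls. Mutant replicate 1 was the highest of the mutants and still 7.39-fold below the lowest control. The fitted difference between the groups was 20.8-fold (log2 fold change -4.38, adjusted p = 1.1e-05), or 42.6-fold without that library (adjusted p = 6.4e-09). In neighbouring stages the gene was almost off in both genotypes, at 0.114 ± 0.198 CPM in mutants and 0.0549 ± 0.0950 CPM in controls at WPP, and at 0.826 ± 0.247 CPM in mutants and 1.21 ± 0.694 CPM in controls at P2 (SD, n = 3 each). CG43294, also on 3L, was at 22.6, 7.29 and 4.68 CPM in mutants, against 122, 176 and 175 CPM in controls (log2 fold change -3.77, adjusted p = 9.6e-04). It too had at most 0.374 ± 0.357 CPM in mutants and 0.373 ± 0.404 CPM in controls at WPP and P2. CG14244, on 3R, was at 33.6, 15.7 and 5.98 CPM in mutants, against 166, 197 and 185 CPM in controls (log2 fold change -3.31, adjusted p = 9.1e-05). DESeq2 called neither CG43294 nor CG14244 (adjusted p = 0.262 and 0.0574). CG15169, on 2L, was at 14.9, 5.00 and 2.99 CPM in mutants, against 77.0, 90.0 and 78.0 CPM in controls (log2 fold change -3.42, adjusted p = 5.0e-05), and at P2 it was still at 12.6 ± 8.96 CPM in mutants and 29.98 ± 19.3 CPM in controls (SD, n = 3 each). In each of these 4 genes the mutant libraries were the more scattered group relative to their mean, with replicate 1 at the top, and the fall was larger without it. The opposite-strand genes that overlap CG11570 and CG43294, CG7248 and prc, were not called (adjusted p = 0.695 and 0.854).

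Cht8, Chs2 and Mur29B were among the named genes that fell, and mesh was picked after its values were seen. Cht8, a chitinase gene, was at 44.9, 30.4 and 16.9 CPM in mutants, against 160.0, 185 and 207 CPM in controls (log2 fold change -2.59, adjusted p = 0.00299). Its overlapping opposite-strand neighbour Cht12 was at 0.270, 39.7 and 47.4 CPM in mutants, against 35.7, 52.3 and 48.1 CPM in controls, and was not called. Chs2, the chitin synthase that supplies the gut's peritrophic matrix, was at 12.2, 5.81 and 5.59 CPM in mutants, against 27.6, 36.5 and 41.2 CPM in controls (4.47-fold lower, adjusted p = 1.1e-04). From WPP to P1 to P2 the mean was 17.6, 7.85 and 3.88 CPM in mutants, against 18.01, 35.1 and 4.02 CPM in controls, and both control steps passed (log2 changes 0.96 and -3.12, adjusted p = 0.0101 and 6.7e-09). Mur29B, a mucin-related gene, was at 2.702, 0.675 and 1.04 CPM in mutants, against 9.95, 13.1 and 12.9 CPM in controls (adjusted p = 0.00163). The septate junction gene mesh, which acts in the gut lining, was at 35.4, 36.5 and 28.6 CPM in mutants, against 89.3, 90.6 and 94.7 CPM in controls (2.73-fold lower, adjusted p = 0.00191). All of them stayed called without mutant replicate 1.

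Among 31 genes of midgut digestion, 2 fell (6.45%, beside 0.629% of all genes tested), none rose, and the median log2 fold change was 0.00. The list's summed level was 31.8, 37.4 and 34.3 CPM in mutants, against 66.7, 66.6 and 66.7 CPM in controls. Most of that gap in the sum came from the 2 called genes, so it does not describe the list at large. In mutant replicate 1, 14 of the listed genes were at 0. The 2 that fell were tobi, an alpha-glucosidase gene known as a target of brain insulin and adipokinetic signals, at 7.70, 7.83 and 6.24 CPM in mutants and 28.2, 31.1 and 29.8 CPM in controls, and Mal-A2, a maltase gene, at 3.51, 4.05 and 4.16 CPM in mutants and 8.47, 9.33 and 11.6 CPM in controls. tobi had an adjusted p of 0.0210 and lost the call when any one of the mutant libraries or control replicate 2 was left out, with the adjusted p between 0.0511 and 0.0684. Mal-A2 (adjusted p = 0.00181) stayed called. The part of midgut RNA as a whole in these falls was not tested.

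**Figure D4:**
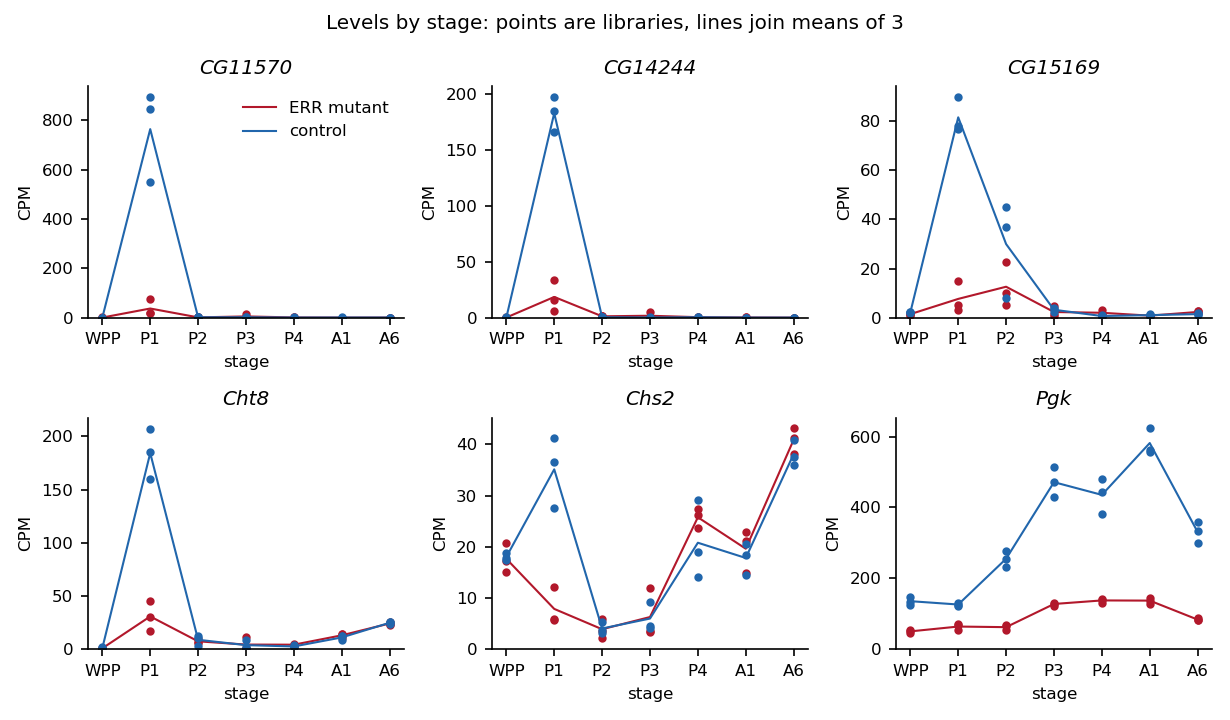
Levels of 6 genes over the 7 stages in CPM, with points for libraries and lines through means of 3, red for ERR mutants and blue for controls. CG11570, CG14244, CG15169 and Cht8 show a control peak at P1 that is much lower in mutants, Chs2 is lower in mutants at P1 and close between genotypes at the other stages, and Pgk is lower in mutants at all stages, with the control line climbing steeply after P1.

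How particular these effects were to P1 was tested as a difference, the P1 effect minus the mean effect at the other 6 stages. edgeR's test called 33 genes, or 0.241% of those tested, 19 with a more negative (0.139%) and 14 with a more positive (0.102%) effect at P1. Without mutant replicate 1 it called 30 (0.217%), 13 more negative (0.0941%) and 17 more positive (0.123%), of which 23 were shared, and the count was 17 without control replicate 2 and 20 without control replicate 3. CG14022, an uncharacterised gene, was at 0 in all mutants, against 2.95, 3.79 and 1.56 CPM in controls, at least 20.3-fold lower when the mutants are set at 3 counts in all. At P2 it was at 5.82 ± 0.892 CPM in mutants and 7.69 ± 0.477 CPM in controls (SD, n = 3 each), and the difference between P1 and the other stages passed (adjusted p = 6.4e-06). CG7888, a predicted amino acid transporter gene, was at 5.95, 3.78 and 3.12 CPM in mutants, against 13.1, 16.9 and 14.8 CPM in controls. Its effect at P1 was below that at the other stages (difference -1.78, adjusted p = 2.1e-06). At P2 the same gene was at 20.9 ± 2.702 CPM in mutants and 23.4 ± 6.40 CPM in controls. nompC, a mechanosensitive channel of sensory neurons, was at 2.57, 1.62 and 1.30 CPM in mutants, against 6.14, 5.69 and 7.93 CPM in controls (difference -1.81, adjusted p = 9.6e-04). CG14196 (difference -2.26), Chs2 (-2.25), Cht8 (-2.68) and CG15169 (-3.35) passed in the same direction. For CG11570 the difference was -5.01, but its stages off the peak rest on very few counts and it did not pass (adjusted p = 0.214).

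In the opposite direction, 6 of the 14 genes were called lower at P1, by a smaller margin than in the mean of the other 6 stages. Of those, 5 encode carbohydrate enzymes. At a single stage the margin could be smaller than at P1, as for AGBE at P4 (log2 fold change -0.52, against -0.98 at P1). Pgk differed by 0.87 (adjusted p = 2.8e-05), Pgm by 0.95 (adjusted p = 0.00116), Gapdh1 by 0.77 (adjusted p = 0.00186), AGBE by 0.94 (adjusted p = 0.0165) and Pgi by 0.76 (adjusted p = 0.0200), and the sixth was eIF4E7, a cap-binding translation factor gene. UGP, which makes UDP-glucose for glycogen and trehalose, was not called at P1, at 60.9, 50.2 and 55.2 CPM in mutants, against 73.9, 59.4 and 71.4 CPM in controls, and its difference from the other stages was 0.997 (adjusted p = 8.7e-05). Between P1 and A1 the control level of Pgk changed more than the mutant level. Its mean was 63.6 ± 9.66 CPM in mutants and 126 ± 3.65 CPM in controls at P1, and 136.8 ± 8.54 CPM in mutants and 581.6 ± 37.5 CPM in controls at A1. eIF4E7 was at 0.405, 2.16 and 1.17 CPM in mutants, against 24.3, 31.3 and 27.96 CPM in controls at P1 (log2 fold change -4.46, adjusted p = 4.0e-10). Its mutant means at the other 6 stages were 0.0567 to 0.622 CPM, so its difference between stages rests on very few mutant counts.

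**Figure D5:**
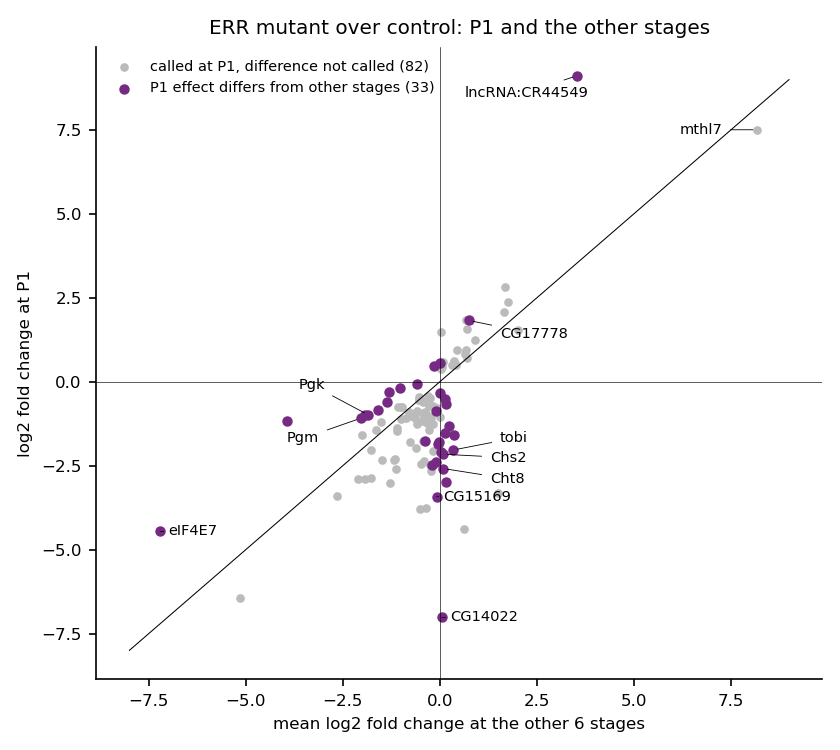
Log2 fold change of ERR mutant over control at P1 (vertical) against its mean over the other 6 stages (horizontal), for the genes called at P1 or called for the difference. Purple points are the 33 genes whose P1 effect differed, grey points the other 82, and the diagonal marks equal effects. CG14022, CG15169, Cht8, Chs2 and tobi lie near 0 on the horizontal axis and well below 0 on the vertical axis, while Pgk and Pgm lie above the diagonal. For tobi that mean joins stages of opposite direction. Its mean level was 3.67 CPM in mutants and 7.64 CPM in controls at P2, but 449 and 139 CPM at A1.

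The genes that rose were fewer and of mixed kind. lncRNA:CR44549, on 3L, was at 11.4, 12.7 and 11.2 CPM in mutants, against 0 in all 3 controls, at least 86.7-fold higher with the controls set at 3 counts in all (adjusted p = 1.4e-10). Its mutant mean was highest at P1, and its P1 effect exceeded the mean of the others (adjusted p = 0.0208). Ptth, the prothoracicotropic hormone that drives ecdysone synthesis, was at 17.4, 30.1 and 24.6 CPM in mutants, against 9.09, 9.96 and 5.33 CPM in controls. The lowest mutant lay 1.75-fold above the highest control, the fitted difference between the groups was 2.96-fold (adjusted p = 0.00458), and the call was lost without control replicate 3 (adjusted p = 0.0737). None of 12 genes of ecdysteroid synthesis and breakdown and none of 26 ecdysone response genes was called by edgeR or DESeq2. At an unadjusted p under 0.05 by edgeR, 1 of the 12 was higher and 2 of the 26 were lower. Of all genes tested, 3.17% were higher and 7.09% lower at that threshold. Lectin-galC1, a galactose-binding lectin gene, was at 65.8, 60.5 and 72.3 CPM in mutants, against 17.1, 27.8 and 38.7 CPM in controls (2.38-fold higher, adjusted p = 7.7e-04). Kmn1, a kinetochore gene, was at 20.8, 28.2 and 24.4 CPM in mutants, against 9.21, 8.22 and 7.93 CPM in controls (adjusted p = 2.5e-04). CG11699, which overlaps Kmn1 on the opposite strand, was at 43.0, 53.6 and 51.6 CPM in mutants, against 28.9, 23.7 and 24.4 CPM in controls, so neither value can be assigned with certainty. CG17778 was at 17.3, 19.6 and 15.3 CPM in mutants, against 4.67, 5.38 and 4.68 CPM in controls, with tight replicates in both groups (3.55-fold higher, adjusted p = 2.8e-07).

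Smaller rises included the male courtship regulator fru, at 38.2, 36.1 and 37.6 CPM in mutants and 25.2, 24.5 and 29.5 CPM in controls (adjusted p = 0.00224), and ry, the xanthine dehydrogenase gene, at 17.8, 28.6 and 31.8 CPM in mutants and 16.6, 17.5 and 14.2 CPM in controls. The ry call (adjusted p = 0.0476) was lost without any one library other than mutant replicate 1, with the adjusted p between 0.0989 and 0.225. rictor, a subunit of TOR complex 2, and sif, a Rac exchange factor gene, rose by log2 values of 0.50 and 0.56. The rictor call was lost in 4 of the 6 fits with 1 library left out (adjusted p between 0.0830 and 0.127), and that of sif without control replicate 2 (adjusted p = 0.0645). The mitochondrial ribosomal RNA mt:srRNA was called higher, at 50.5, 17.8 and 17.2 CPM in mutants and 10.1, 9.64 and 10.7 CPM in controls, but not without mutant replicate 1 (adjusted p = 0.501). The other mitochondrial ribosomal RNA, mt:lrRNA, was called higher by DESeq2 but not by edgeR. Of 12 tested mitochondrial genome genes other than these ribosomal RNAs, none was called by edgeR. Among them, 9 were higher at an unadjusted p under 0.05 (3.17% of all genes) and DESeq2 called 5 higher (0.892% of all genes). The median log2 fold change of the 12 was 0.89, and 0.21 without mutant replicate 1. Of 18 neuronal genes none was called by edgeR and 1 by DESeq2 (Snap25), and 7 were higher at an unadjusted p under 0.05, as were 3.17% of all genes. Their log2 values were above 0 in 17 of 18, while 8449 of all 13672 genes tested lay below 0. The median of the 18 was 0.26, and 0.18 without mutant replicate 1. Their summed level was 1437, 1132 and 1154 CPM in mutants, against 1115, 911 and 1128 CPM in controls.

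Of 78 cytochrome P450 genes, a family of oxidising enzymes, Cyp9b2 and Cyp6a13 fell and Cyp6a16 rose, each also without mutant replicate 1, so that 3.85% were called beside 0.797% of all genes. Cyp9b2 was at 12.4, 8.64 and 8.06 CPM in mutants, against 22.6, 28.6 and 32.8 CPM in controls (adjusted p = 0.00791), and Cyp6a16 was at 6.35, 10.4 and 6.89 CPM in mutants, against 2.46, 3.00 and 1.17 CPM in controls (adjusted p = 7.7e-04). Of 35 glutathione S-transferase genes, 1 (2.86%) was called. This was GstE8, which fell (adjusted p = 0.0140, and 0.0458 without mutant replicate 1), and the call was lost without mutant replicate 2 or control replicate 1 (adjusted p = 0.0529 and 0.119). GstT3, at 21.2, 29.8 and 29.8 CPM in mutants and 19.6, 18.3 and 16.1 CPM in controls, was not called with all libraries (adjusted p = 0.0928), but was called higher without mutant replicate 1 (adjusted p = 0.0193) and by DESeq2. None of 20 heat shock protein genes was called by edgeR or DESeq2, and their median log2 fold change was -0.02. Of the 20, 1 was lower at an unadjusted p under 0.05, as were 7.09% of all genes. By chromosome arm, calls made up 1.24% of tested genes on X, 1.09% on 2L and 0.600% to 0.623% on 2R, 3L and 3R, with none among 95 genes of chromosome 4.

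Whole profiles were also placed along the control time course, as a description with no test. On the line between the mean control profiles of WPP (0) and P1 (1), over 3185 genes, the mutants lay at 0.952, 1.004 and 0.974, and the controls, each left out of its own mean, at 0.966, 1.004 and 1.011. On the line from P1 (0) to P2 (1), over 2737 genes, mutants lay at 0.003, 0.040 and 0.038 and controls at 0.025, 0.004 and -0.012. The ranges of the groups overlapped on the first line. On the second they overlapped through mutant replicate 1 alone, and the other 2 mutants lay above every control.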

How the data were processed

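RNA of whole animals was prepared as stranded poly(A) libraries, per the labels' protocols. The authors deposited estimated counts per gene, whole numbers used as they stand, and FPKM values, used here only to compare levels between genes. The submitters' processing notes name cutadapt 1.16, STAR 2.7.0f, RSEM 1.3.1, DESeq2 1.22.2 and build dm6. Neither the annotation nor the strand setting is given in the sources used here. Groups came from the genotype and time point labels, and replicates are numbered in accession order.

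All 42 libraries (14 groups) entered 1 fit of edgeR 4.0.16 under R 4.3.3, with TMM, filterByExpr (13672 of 15038 genes kept), the robust quasi-likelihood test on 28 residual degrees of freedom, and Benjamini-Hochberg adjustment over all genes. A gene is called at an adjusted p under 0.05, with no fold threshold. Alternatives were DESeq2 1.42.0, its size factors in edgeR, P1 libraries alone, no filter, no robust step and each P1 library left out. On simulated counts over 13594 genes for the P1 comparison, 73 of 100 genes changed 2-fold and 96 of 100 changed 4-fold were called, with 6 false calls. These figures describe the simulation only and are not rates for the real libraries. Recovery and false calls among weakly expressed genes, or with an outlying library such as mutant replicate 1, were not tested. Between replicates the chi-square statistic per gene was 4.50 to 67.5, so no pair agreed within sampling noise. A bound sets a group at 0 to 3 counts in all and covers counting error only.

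The comparison and the gene lists were chosen with earlier results of these data known. The naming rule took ERR, the 12 higher and 12 lower called genes of at least 5 CPM without overlap between groups and with the largest change, called list members, the 8 called genes with the smallest p for the difference between stages, and the 10 genes furthest apart in mutant replicate 1. Other named genes were picked after their values were seen. Positions are from the Ensembl annotation BDGP6.54 in dm6 coordinates, which holds 99.4% of the identifiers. Of the 109 called genes, 43 overlap another annotated gene, 40 of them on the other strand, and can share its reads. Apart from these, Gss1 and Gss2 had identical levels in the 6 P1 libraries. CG32819 and CG32820 were nearly identical, with means of 8.26 and 8.61 CPM in mutants and 42.2 and 42.85 CPM in controls. Each gene of these pairs is counted separately among those called lower.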

Additional observations from a re-analysis of the deposited data

Results flagged for a closer look

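A total of 33 genes had a P1 effect (log2 fold change of ERR mutant over control) that differed from the mean effect at the other 6 stages by edgeR's quasi-likelihood test, adjusted over all genes. Values are the P1 effect minus that mean, in log2 units, and none is given an explanation. Where a group was at or near 0, as for CG14022, eIF4E7 and lncRNA:CR44549, the size is a fitted value resting on very few counts.

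The effect was more negative at P1 for CG14022 (-7.07), CG15169 (-3.35), vanin-like (-3.14), Cht8 (-2.68), tobi (-2.38), hiro (-2.28), CG14196 (-2.26), Chs2 (-2.25), CG8785 (-2.13), Cyp12a4 (-1.93), nompC (-1.81), CG7888 (-1.78), Cyp9b2 (-1.66), Mal-A2 (-1.55), CG13321 (-1.398), MtnA (-0.83), CG7997 (-0.78), CG17574 (-0.66) and REG (-0.32). Of these, Cyp12a4 was not itself called at P1.

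The effect was more positive at P1 for lncRNA:CR44549 (5.58), CG32640 (2.77), eIF4E7 (2.75), CG17778 (1.08), UGP (0.997), Pgm (0.95), AGBE (0.94), Pgk (0.87), Taldo (0.84), Gapdh1 (0.77), Pgi (0.76), CG6867 (0.61), sif (0.55) and CG7766 (0.51). Of these, CG32640, UGP, Taldo, CG6867 and CG7766 were not called at P1. Without mutant P1 replicate 1, 23 of the 33 differences passed, and those of tobi and Mal-A2 did not (adjusted p = 0.0757 and 0.0797). No group of 3 libraries was tested for a single outlying sample.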

How the results depend on the processing

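All settings but those fitted on P1 libraries alone share the 42-library estimate of the spread. Leaving out 1 P1 library at a time gave 80 to 146 called genes (109 with all), 11 to 35 higher, 69 to 117 lower, 9 to 11 lower glycolysis genes and 17 to 45 genes differing from the other stages. Of the 109, 68 (9 higher, 59 lower) were called in all 6 of these fits and 18 under all 12 settings. The 6 P1 libraries alone gave 19 genes (5 higher, 14 lower, 5 of glycolysis), and the 5 without mutant replicate 1 gave 171, 44 of them higher. DESeq2's size factors in edgeR gave 74 higher, and DESeq2 234 genes, 122 higher (0.892%) and 112 lower (0.819%), and 103 differing from the other stages. The cause was not tested. Dropping the filter or the robust step gave 111 and 116 calls. The log2 fold change of Hex-C at P1 (-0.39, not called) ranged from -1.003 to 0.0512 with 1 library left out, above 0 without control replicate 2. Over the 109 called genes, 242 alternative values lost the call. The fit on the 6 P1 libraries alone kept the fewest, 19 of the 109. Calls lost there included strong ones, such as CG7888 (adjusted p = 7.7e-08 by edgeR with all 42 libraries). No paired analysis was possible because replicate numbers follow accession order and pair no samples. Genes under a few CPM are limited by depth.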
